A study of Mus musculus with 9 samples.

Results

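DNA methylation and chromatin repression enzymes were followed in mouse Balb/c-3T3 fibroblasts through 9 genes: Dnmt1, Dnmt3a, Dnmt3b, Uhrf1, Tet1, Tet2, Tet3, Ezh2 and Cdyl. All probesets whose single annotated symbol is one of these genes were taken, which gave 23 probesets of the 45037 tested. The 3 cell lines compared were the control Balb/c-3T3 fibroblasts, v-Src 3T3 cells stably transfected with the plasmid pMvSrc and STAT3-C 3T3 cells stably transfected with pRc/CMV-STAT3C. v-Src is a tyrosine kinase and the transforming protein of an avian sarcoma virus (Rous), and STAT3-C is a mutant form of the transcription factor STAT3 that is active without a signal. Each line has 3 Affymetrix Mouse Genome arrays, each from 1 ug of RNA pooled from 5 dishes of a passage. The arrays of a line are therefore passages of 1 stable line, and p-values measure the spread between passages rather than between clones.

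Cytosine methylation at CpG dinucleotides is copied onto new DNA after replication by the methyltransferase Dnmt1, which Uhrf1 brings to half-methylated sites. Dnmt3a and Dnmt3b place methylation on sites that lack it, and the Tet dioxygenases oxidize methylated cytosine and so start its removal. A second layer of repression lies on histones: Ezh2 is the catalytic subunit of Polycomb repressive complex 2 (PRC2), which methylates lysine 27 of histone H3, and Cdyl is a chromodomain protein that binds methylated histone H3 and links the repressor REST to histone methyltransferases.

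Levels are given as the authors' Robust Multichip Average (RMA) expression on the log2 scale, in which a difference of 1 is a doubling. Array medians were 6.27 to 6.39 and lower quartiles 5.07 to 5.16, and a mean below 5.16 is treated as near background. Array profiles correlated at 0.990 to 0.995 within a line and 0.943 to 0.977 between lines, and no array stood apart. Each transfected line was compared with control, and the 2 were compared directly, as v-Src minus STAT3-C. A probeset was called higher or lower when limma's moderated test gave a Benjamini-Hochberg adjusted p under 0.05 over all probesets and the fold was at least 1.5. Cdyl was chosen by its level on these arrays, being among the large falls in both transfected lines, so its changes against control are described without a test. Probesets have different affinities, so levels are compared between lines and not between genes. In RNA from whole dishes, fewer cells expressing a gene and less RNA per cell cannot be told apart. Stat3 probeset 1426587_a_at differed from control by 1.53 in the v-Src line and by 0.24 in the STAT3-C line, and 1460700_at by 1.30 and 0.72. Stat3 1459961_a_at differed by 0.54 and 0.21, and 1424272_at by 0.28 and 0.11. Src probeset 1423240_at differed by -0.25 and -0.51, and 1450918_s_at by -0.11 and -0.12. Whether these probesets read transgene RNA was not tested.

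The fibroblast label was checked with 11 marker genes, all above the lower quartile in at least 1 line. Vim, the intermediate filament of mesenchymal cells, averaged 13.41 in control, 13.43 in v-Src and 13.17 in STAT3-C cells. Of these markers 2 rose and 6 fell with v-Src, and 1 rose and 7 fell with STAT3-C. The fall was greatest for Thy1, a surface glycoprotein, at -5.17 and -5.18 in turn. Pdgfrb, a growth factor receptor of mesenchymal cells, differed directly by -3.13. Of 6 macrophage and leukocyte markers, 2 rose with v-Src and 3 with STAT3-C, and none fell. For comparison, 9.54% of all 18193 genes were called higher and 10.4% lower in the v-Src line. In the STAT3-C line these shares were 11.9% and 10.3%. No test compared the small marker lists with these shares. Cd14, a coreceptor for bacterial lipopolysaccharide, rose by 2.12 in each line, and the lysosomal protein Cd68 differed directly by -1.17. The summed level of that list was 9.59 to 9.63 in control, 10.70 to 11.01 in v-Src and 10.80 to 11.29 in STAT3-C arrays. The common leukocyte antigen Ptprc, which defines these cells, averaged 3.99, 4.10 and 4.36, near background in all lines. Of 6 epithelial and 4 endothelial markers none was called by limma against control. At an unadjusted p under 0.05 v-Src had 4 and 0 and STAT3-C had 3 and 1. Epcam, an epithelial adhesion molecule, differed directly by 0.66 on a probeset with the suffix _x. That suffix marks probes that may cross-hybridize with other transcripts. The part of these markers in the results below was not tested.

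Across the 20 probesets of the 8 members other than Cdyl, most were not called against control, and the calls went both ways. With v-Src, 2 were called higher and 3 lower, which is 25% beside 16.8% of all probesets (8.75% higher and 8.1% lower). With STAT3-C, 2 were higher and 4 lower, which is 30% beside 18.3% (9.68% and 8.58%). Directly, 3 were higher with v-Src relative to STAT3-C and none lower, which is 15% beside 10.3% (4.99% and 5.33%). At an unadjusted p under 0.05, 4 of the 20 were lower there. The median log2 change of the 20 probesets was 0.11, -0.12 and 0.16 in the 3 comparisons, against 0.03, 0.02 and 0.00 over all probesets. Each called share lay above that of all probesets, but on 20 probesets of 8 genes, and no test compared them. The changes are described gene by gene.

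**Figure D1:**
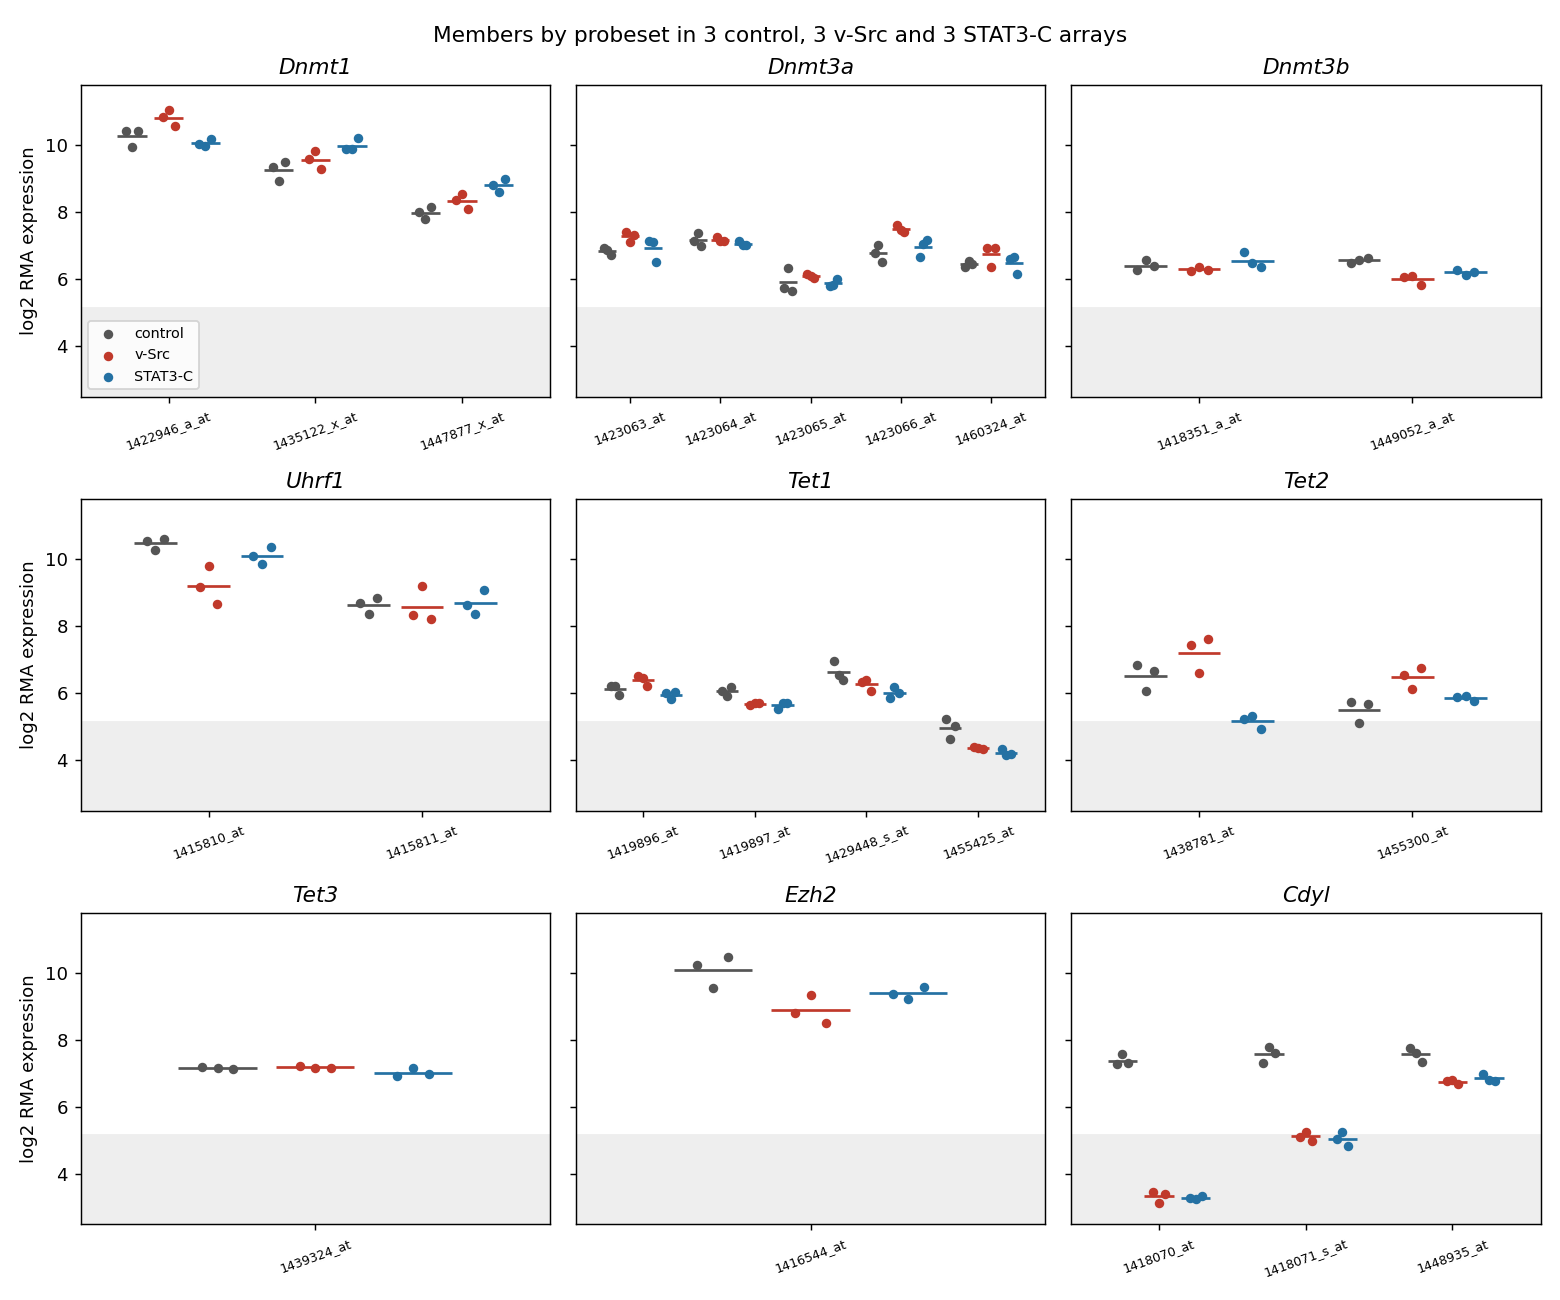
RMA expression (log2) of every member probeset in each array, with a panel for each gene; points are arrays, short lines the means of 3 arrays, and the grey band the range below 5.16. Cdyl separates from control in both transfected lines on all 3 probesets, whereas Tet3 lies between 6.92 and 7.23 in all 9 arrays.

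Uhrf1 and Dnmt1, the pair that copies methylation after replication, showed no shared change, and the probesets of each gene disagreed. Uhrf1 probeset 1415810_at read 10.56, 10.28 and 10.60 in the control arrays, 9.16, 9.79 and 8.67 in the v-Src arrays, and 10.10, 9.86 and 10.35 in the STAT3-C arrays. All v-Src arrays lay below all control arrays, and array 5 was the highest of them. With v-Src, Uhrf1 fell by 1.27 (log2), a 2.42-fold difference (SE 0.26, adjusted p = 0.0104). With STAT3-C the change was -0.38 (SE 0.15, adjusted p = 0.0927), and the arrays of those lines overlapped. The direct difference of v-Src minus STAT3-C was -0.90 (SE 0.27, adjusted p = 0.0542). It passed without v-Src array 5, at -1.19 (adjusted p = 0.0103), and under 4 other settings with adjusted p between 0.0267 and 0.0477. The second Uhrf1 probeset, 1415811_at, disagreed with the first: it read 8.69, 8.38 and 8.83 in control, 8.34, 9.20 and 8.21 in v-Src, and 8.64, 8.36 and 9.08 in STAT3-C arrays. The lines overlapped throughout on it, and its change with v-Src was -0.05 (adjusted p = 0.915). Both probesets were designed on the same transcript record, so the fall of Uhrf1 rests on 1 of 2 readings.

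Dnmt1 was read by 3 probesets, which ordered the lines differently. Probeset 1422946_a_at, designed on transcripts of this gene alone, read 10.43, 9.95 and 10.43 in control, 10.84, 11.05 and 10.59 in v-Src, and 10.04, 9.99 and 10.20 in STAT3-C arrays. Here the v-Src arrays were the highest, while STAT3-C and control overlapped. Its direct difference was 0.75 (SE 0.13, adjusted p = 0.00702), and against control the change was 0.55 with v-Src (SE 0.17, adjusted p = 0.0475, under the fold threshold) and -0.20 with STAT3-C (adjusted p = 0.365).

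The other 2 Dnmt1 probesets carry the suffix _x, which marks probes that may cross-hybridize with other transcripts. On 1435122_x_at the control arrays read 9.35, 8.94 and 9.51, the v-Src arrays 9.59, 9.83 and 9.29, and the STAT3-C arrays 9.88, 9.88 and 10.20. On 1447877_x_at they read 8.0, 7.79 and 8.17 in control, 8.36, 8.54 and 8.10 in v-Src, and 8.82, 8.60 and 8.99 in STAT3-C arrays. On both, the STAT3-C arrays were the highest and did not overlap control. With STAT3-C, 1447877_x_at rose by 0.82 (SE 0.14, adjusted p = 0.00269) and 1435122_x_at by 0.72 (SE 0.16, adjusted p = 0.0116), the latter call being lost without control array 2 (change 0.56). In the direct comparison they lay at -0.47 (adjusted p = 0.0568) and -0.42 (adjusted p = 0.103), opposite in sign to 1422946_a_at. Whether the _x probesets read Dnmt1 alone was not tested.

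The de novo methyltransferases changed little. Dnmt3a was read by 5 probesets designed on the same transcript record, of which 1 was called. That probeset, 1423066_at, read 6.80, 7.03 and 6.52 in control, 7.63, 7.48 and 7.41 in v-Src, and 6.68, 7.05 and 7.17 in STAT3-C arrays. The v-Src arrays lay above all the others. It rose by 0.72 with v-Src (SE 0.14, adjusted p = 0.00709), and the direct difference was 0.54 (adjusted p = 0.0303, under the fold threshold). Probeset 1423063_at, which read 6.93, 6.89 and 6.71 in control, 7.40, 7.12 and 7.33 in v-Src, and 7.16, 7.12 and 6.53 in STAT3-C arrays, changed by 0.44 with v-Src (adjusted p = 0.0172, under the fold threshold). For the other 3, 1423064_at, 1423065_at and 1460324_at, the changes with v-Src were 0.00, 0.20 and 0.29. With STAT3-C none of the 5 was called, and their changes lay between -0.11 and 0.18.

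Dnmt3b probeset 1449052_a_at read 6.49, 6.56 and 6.63 in control, 6.07, 6.10 and 5.84 in v-Src, and 6.27, 6.14 and 6.21 in STAT3-C arrays. Both transfected lines lay below control without overlap. The changes of -0.56 with v-Src (SE 0.10, adjusted p = 0.00454) and -0.36 with STAT3-C (adjusted p = 0.0185) passed on p but stayed under the fold threshold. The v-Src change was called with the arrays centred on their medians (-0.63), after quantile normalization (-0.62), and without control array 1 (-0.60) or v-Src array 1 (-0.59) or 5 (-0.61). The other probeset, 1418351_a_at, read 6.27, 6.58 and 6.39 in control, 6.25, 6.37 and 6.28 in v-Src, and 6.81, 6.47 and 6.37 in STAT3-C arrays, which overlap.

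Of the Tet enzymes, Tet2 (chr3:133463677-133545136) had the largest difference between the transfected lines. Tet2 probeset 1438781_at read 6.83, 6.08 and 6.66 in control, 7.42, 6.61 and 7.61 in v-Src, and 5.24, 5.32 and 4.93 in STAT3-C arrays. The STAT3-C arrays were the lowest by a clear gap, and the v-Src and control arrays overlapped through v-Src array 5. Tet2 fell by 1.36 with STAT3-C (SE 0.20, adjusted p = 0.00139), to a mean of 5.16 at the edge of background. With v-Src the change was 0.69 (SE 0.29, adjusted p = 0.127), and without v-Src array 5 it was 1.00 and passed (adjusted p = 0.0245). The direct difference was 2.05, or 4.14-fold (SE 0.25, adjusted p = 0.00211). This call held without any single array.

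The second Tet2 probeset placed STAT3-C otherwise. Probeset 1455300_at read 5.73, 5.12 and 5.67 in control, 6.56, 6.14 and 6.76 in v-Src, and 5.90, 5.92 and 5.77 in STAT3-C arrays. Here the v-Src arrays were again the highest, but the STAT3-C arrays lay just above control. It rose by 0.98 with v-Src (SE 0.21, adjusted p = 0.0123), a call lost without v-Src array 1 (0.94, adjusted p = 0.0508). With STAT3-C the change was 0.36 (adjusted p = 0.143). The direct difference of 0.62 (SE 0.15, adjusted p = 0.0288) lost its call without v-Src array 1 or 6 or any single STAT3-C array, with values of 0.49 to 0.65. Both probesets thus had v-Src above STAT3-C, but they had opposite signs for STAT3-C against control.

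Tet1 was read by 4 probesets, 1 of them near background. Probeset 1455425_at had means below the lower quartile in all 3 lines, reading 5.22, 4.64 and 5.01 in control, 4.40, 4.36 and 4.34 in v-Src, and 4.33, 4.15 and 4.19 in STAT3-C arrays. It was called lower with v-Src at -0.59 (SE 0.14, adjusted p = 0.0199), a call lost without control array 1 or 3 or any single v-Src array, and with STAT3-C at -0.74 (SE 0.15, adjusted p = 0.00679). Sizes at that level are limited by background.

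The remaining Tet1 probesets lay above it. Probeset 1429448_s_at, which is shared by several transcripts, read 6.95, 6.55 and 6.38 in control, 6.32, 6.40 and 6.08 in v-Src, and 5.86, 6.18 and 6.01 in STAT3-C arrays. It fell by 0.61 with STAT3-C (SE 0.16, adjusted p = 0.0208), which was lost without control array 1 or STAT3-C array 1 or 3. Probeset 1419897_at read 6.05, 5.91 and 6.20 in control, 5.65, 5.69 and 5.69 in v-Src, and 5.54, 5.69 and 5.69 in STAT3-C arrays, so that both transfected lines lay below control. It changed by -0.38 with v-Src (adjusted p = 0.0193) and by -0.41 with STAT3-C (adjusted p = 0.0198), under the fold threshold in each. Probeset 1419896_at read 6.21, 6.21 and 5.95 in control, 6.51, 6.46 and 6.23 in v-Src, and 6.02, 5.82 and 6.03 in STAT3-C arrays. Unlike the other Tet1 probesets it lay above control in the v-Src arrays, by 0.28 and without overlap (adjusted p = 0.113), while STAT3-C differed by -0.17 (adjusted p = 0.305). Its direct difference was 0.45 (adjusted p = 0.0246), under the fold threshold. Tet3 had 1 probeset, which read 7.19, 7.18 and 7.14 in control, 7.23, 7.18 and 7.18 in v-Src, and 6.92, 7.18 and 6.99 in STAT3-C arrays. Its change with v-Src was 0.03 (95% interval -0.13 to 0.19, adjusted p = 0.794), and with STAT3-C it was not called.

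Ezh2, the methyltransferase of PRC2, was lower in both transfected lines. Its probeset read 10.24, 9.56 and 10.48 in control, 8.80, 9.35 and 8.52 in v-Src, and 9.37, 9.24 and 9.58 in STAT3-C arrays. Control array 2 was the lowest of its line and v-Src array 5 the highest of its own. The v-Src arrays stayed below control, and 1 STAT3-C array reached control array 2. Ezh2 fell by 1.20 with v-Src (SE 0.28, adjusted p = 0.0183) and changed by -0.70 with STAT3-C (SE 0.22, adjusted p = 0.0480). Both calls depended on single arrays: the v-Src call was lost without control array 1 or 3 or v-Src array 1 or 6, at -1.01 to -1.16, and the STAT3-C call without control array 1 or 3 or any single STAT3-C array, at -0.50 to -0.79. The direct difference was -0.51 (95% interval -0.99 to -0.03, adjusted p = 0.130), and it passed without v-Src array 5 at -0.74 (adjusted p = 0.0168).

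Cdyl had the largest differences from control of the 9 genes, and these are the values for which it was picked. Probeset 1418070_at read 7.29, 7.57 and 7.31 in control, 3.46, 3.15 and 3.41 in v-Src, and 3.28, 3.26 and 3.35 in STAT3-C arrays. Probeset 1418071_s_at read 7.33, 7.80 and 7.63 in control, 5.12, 5.26 and 4.99 in v-Src, and 5.04, 5.26 and 4.85 in STAT3-C arrays. The transfected lines lay far below control on both. Their means were below 5.16, near background, so the sizes of these differences are uncertain. They were -4.05 (16.6-fold) on the first and -2.46 on the second with v-Src. For STAT3-C they were -4.09 and -2.54.

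The third Cdyl probeset showed a smaller difference. Probeset 1448935_at read 7.77, 7.63 and 7.35 in control, 6.78, 6.82 and 6.68 in v-Src, and 6.99, 6.81 and 6.79 in STAT3-C arrays, with differences of -0.82 and -0.72. These arrays did not overlap control, yet they stayed above the median of the array. All 3 probesets were designed on the same transcript record, and the reason for their unequal size was not tested. Of all probesets, 16.8% and 18.3% were called in these comparisons.

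Cdyl was picked for a fall shared by both transfected lines, and that choice favours a small difference between them. The direct values are therefore described without a test, and nothing is concluded from their small size. The v-Src minus STAT3-C values were 0.04 (95% interval -0.19 to 0.27) for 1418070_at, 0.08 (-0.22 to 0.37) for 1418071_s_at and -0.10 (-0.31 to 0.11) for 1448935_at. On the first pair of probesets both lines were near background, where little difference could be seen. The third was above the array median in all lines.

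**Figure D2:**
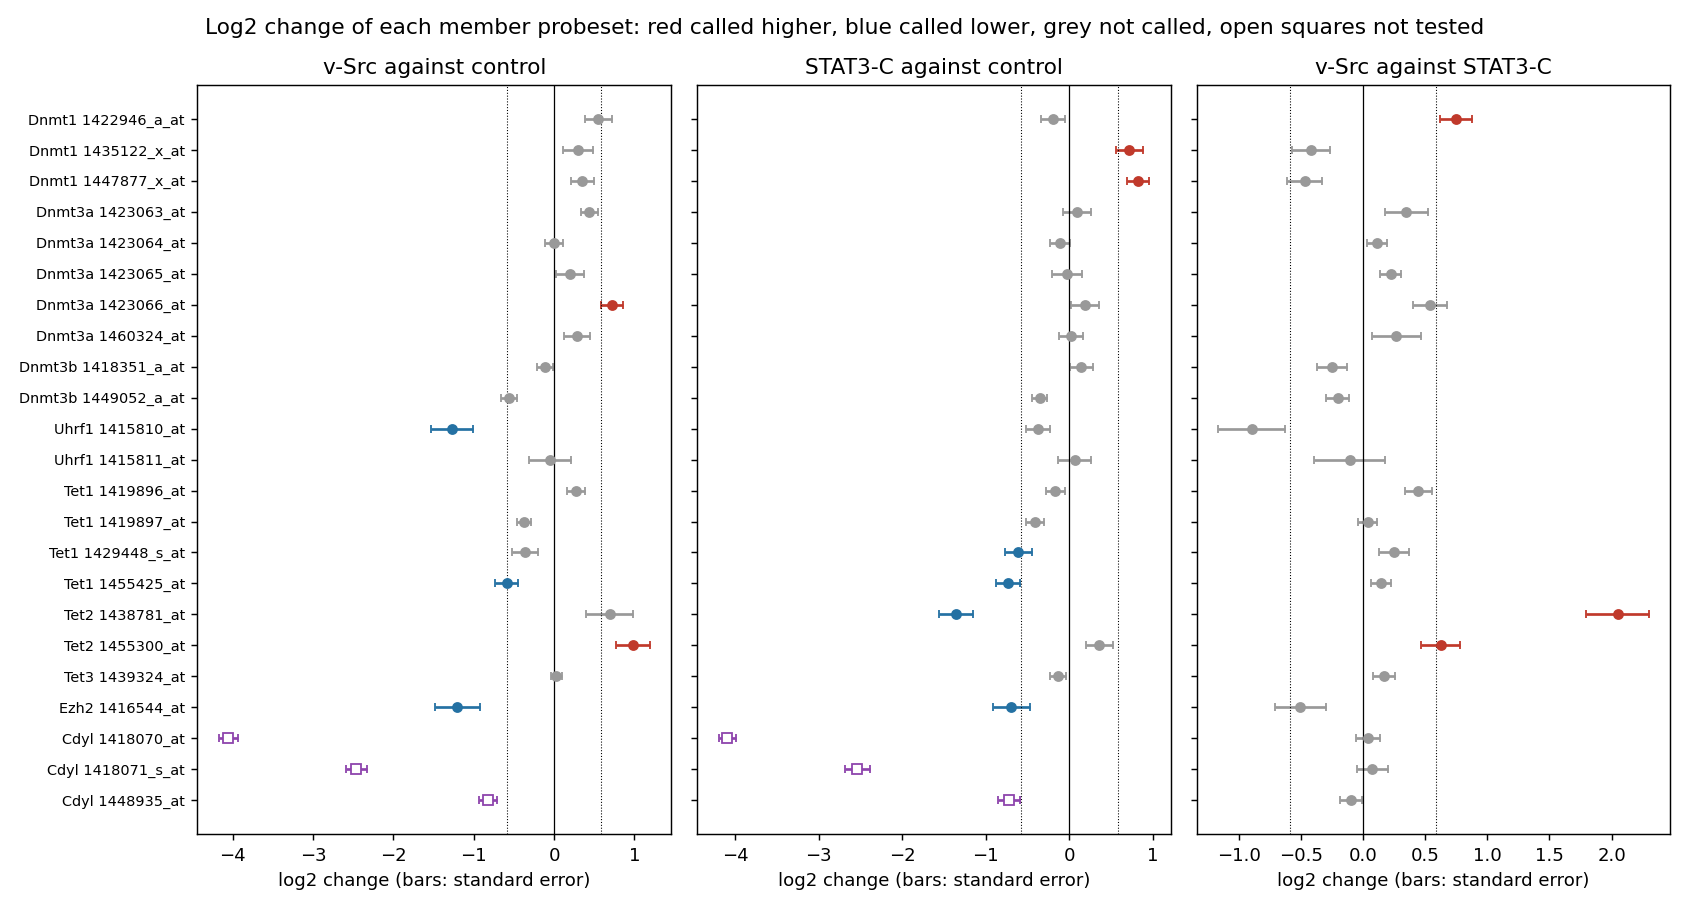
Log2 change of each member probeset in the 3 comparisons, each panel with its own horizontal scale; points are limma estimates, bars 1 standard error, and dotted lines a fold of 1.5. Open squares mark Cdyl against control, which was not tested, and Tet2 1438781_at shows the largest direct difference, at 2.05.

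The annotated promoters of the members were read next, to show which sequence features they share and where they differ. RefSeq windows of 300 bases, 250 before and 50 after an annotated start (GRCm38.p6), were found for 9 of 9 members and hold 16 starts. Which start was used in these cells was not measured. The lines below show an upstream and a downstream Cdyl window, because Cdyl had the largest differences, with capitals marking the letters TT and AA spaced 4, 5 or 6 bases apart, the spacing of STAT sites.

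Cdyl start 1 (chr13:35659612-35659911, plus strand): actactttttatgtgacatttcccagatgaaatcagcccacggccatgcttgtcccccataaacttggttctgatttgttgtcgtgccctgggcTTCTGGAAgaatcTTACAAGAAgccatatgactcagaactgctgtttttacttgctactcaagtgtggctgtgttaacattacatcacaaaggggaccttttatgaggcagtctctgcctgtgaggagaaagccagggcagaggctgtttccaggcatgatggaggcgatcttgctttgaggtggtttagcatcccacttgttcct
Cdyl start 3 (chr13:35741212-35741511, plus strand): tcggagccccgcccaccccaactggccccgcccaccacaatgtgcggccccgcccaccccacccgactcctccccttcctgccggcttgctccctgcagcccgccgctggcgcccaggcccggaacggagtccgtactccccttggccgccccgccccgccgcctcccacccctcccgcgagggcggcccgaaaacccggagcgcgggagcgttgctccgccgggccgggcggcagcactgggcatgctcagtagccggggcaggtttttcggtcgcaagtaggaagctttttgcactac

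Cdyl spans chr13:35659818-35874064, and its starts fall into an upstream window with 3 CpG dinucleotides and a downstream pair with 34 and 32. The median over all 32851 windows was 7. The upstream window holds TTCTGGAA and TTACAAGAA. Of the downstream pair, start 2 holds TTGGGCAA and start 3 holds no such word. These spacings are common: TTNNNNAA lies in 61.5% of all windows, TTNNNNNAA in 59.0%, the pair 6 bases apart in 58.5% and any of them in 78.8%, counted on both strands with overlaps. The stricter word TTCNNNGAA lies in 8.3% of all windows and in none of the 16.

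The next windows are shown because Dnmt1, Uhrf1 and Ezh2 are genes of replicating cells and hold, alone among the members, a word of the E2F factors, which control replication genes. Capitals mark those words and, in Dnmt1 start 1 and Ezh2, the STAT spacings.

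Dnmt1 start 1 (chr9:20959839-20960138, minus strand): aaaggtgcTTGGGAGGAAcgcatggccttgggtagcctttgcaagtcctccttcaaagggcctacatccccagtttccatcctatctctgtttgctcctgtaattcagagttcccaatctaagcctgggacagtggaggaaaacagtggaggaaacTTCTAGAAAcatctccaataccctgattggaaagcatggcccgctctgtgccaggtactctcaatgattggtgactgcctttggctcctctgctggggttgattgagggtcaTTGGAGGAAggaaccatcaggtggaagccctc
Dnmt1 start 3 (chr9:20952574-20952873, minus strand): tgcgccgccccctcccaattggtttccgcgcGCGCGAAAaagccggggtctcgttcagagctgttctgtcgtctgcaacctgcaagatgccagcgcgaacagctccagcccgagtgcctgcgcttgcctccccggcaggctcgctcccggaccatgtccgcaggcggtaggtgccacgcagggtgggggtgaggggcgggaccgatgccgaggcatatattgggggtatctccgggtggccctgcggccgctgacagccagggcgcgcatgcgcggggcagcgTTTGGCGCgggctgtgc
Uhrf1 start 2 (chr17:56304063-56304362, plus strand): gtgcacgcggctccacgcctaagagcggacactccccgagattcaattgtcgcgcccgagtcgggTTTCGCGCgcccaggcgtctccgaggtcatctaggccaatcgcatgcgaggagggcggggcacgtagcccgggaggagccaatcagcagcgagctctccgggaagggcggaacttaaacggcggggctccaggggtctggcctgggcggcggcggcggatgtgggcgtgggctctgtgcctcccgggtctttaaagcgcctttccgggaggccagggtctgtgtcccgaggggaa
Ezh2 start (chr6:47594981-47595280, minus strand): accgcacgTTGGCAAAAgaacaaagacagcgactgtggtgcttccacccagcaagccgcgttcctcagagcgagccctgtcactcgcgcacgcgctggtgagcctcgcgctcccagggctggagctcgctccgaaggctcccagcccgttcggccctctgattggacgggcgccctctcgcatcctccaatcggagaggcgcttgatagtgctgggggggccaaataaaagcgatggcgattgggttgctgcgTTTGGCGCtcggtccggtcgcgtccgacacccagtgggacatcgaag

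The E2F words searched, on both strands, were TTTGGCGC, TTTCGCGC, TTTCCCGC and TTTGCCGC, and 2.26% of all windows hold at least 1. The words were chosen after the windows were read, so their presence in these members cannot be judged against that share. They occur 2 times in Dnmt1 start 3 and 1 time each in Uhrf1 start 2 and Ezh2. With v-Src, Ezh2 and 1 of 2 Uhrf1 probesets fell, and no Dnmt1 probeset was called. The part of E2F factors in these changes was not tested. Dnmt1 start 1 holds TTCTAGAA, present in 1.1% of windows. On GRCm38.p6 these genes span chr9:20907206-20959888 (Dnmt1), chr17:56303337-56323486 (Uhrf1) and chr6:47530274-47595270 (Ezh2). A match is a description of the letters and not a measured site.

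**Figure D3:**
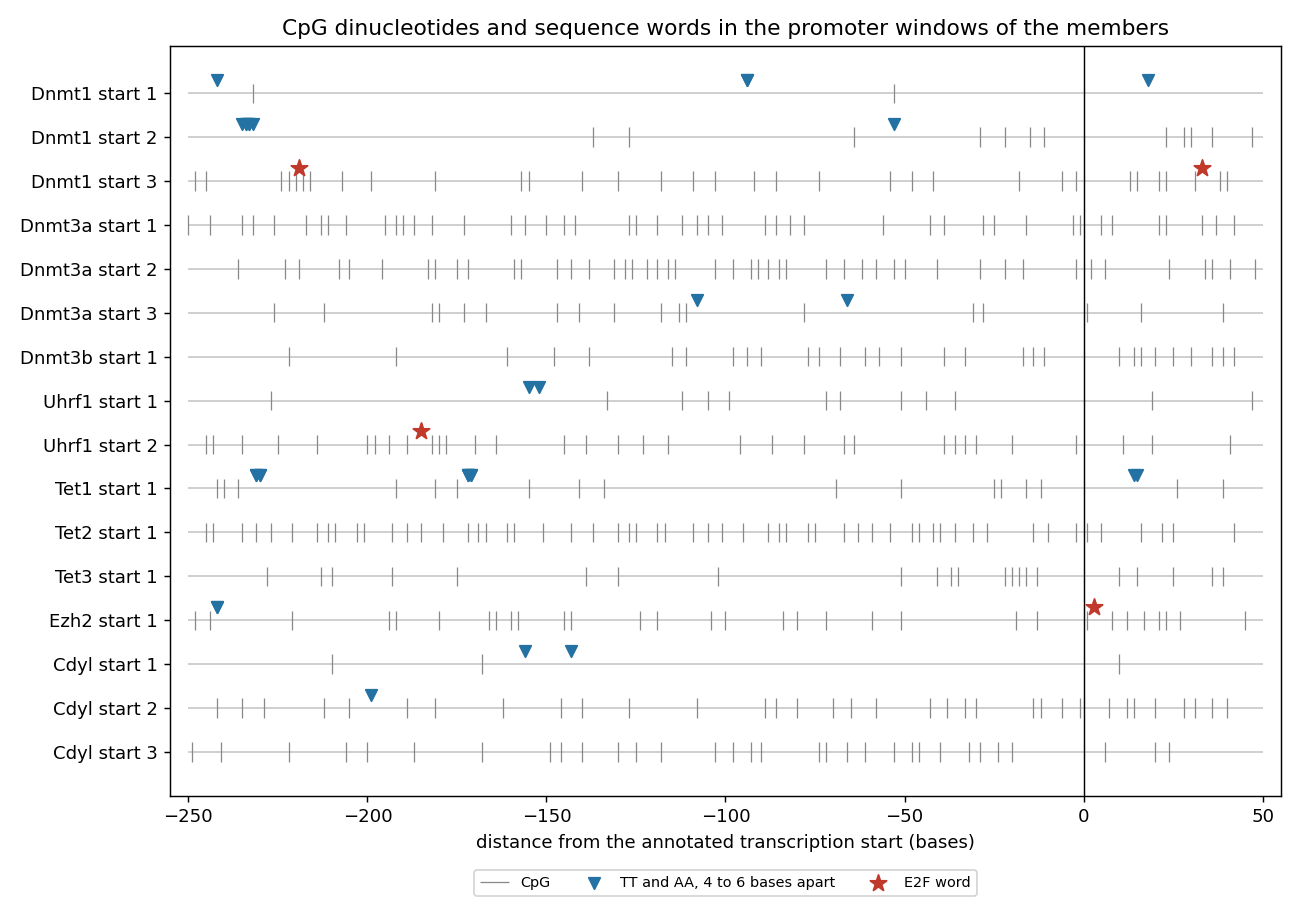
Distance from the annotated start (bases) of CpG dinucleotides (grey ticks), TT and AA pairs 4 to 6 bases apart (blue triangles) and E2F words (red stars) in the 16 promoter windows. CpG counts run from 2 in Dnmt1 start 1 to 57 in Tet2, and E2F words appear in 3 windows.

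The genes whose profile over the 9 arrays was most like that of a member were ranked by the root mean square difference after centring each profile on its mean. For Uhrf1 1415810_at these were Dnajc9 (0.112, r = 0.985), Tk1 (0.15, r = 0.972) and Rrm1 (0.158, r = 0.989). Dnajc9 is a histone chaperone, Tk1 is thymidine kinase and Rrm1 is the large subunit of ribonucleotide reductase. For Ezh2 they were E2f7 (0.105, r = 0.989), Pole (0.105, r = 0.984) and Dtl (0.124, r = 0.978), which are an E2F repressor, the catalytic subunit of DNA polymerase epsilon and an adaptor of a replication-linked ubiquitin ligase. For Tet2 1438781_at the nearest was Dusp6, a phosphatase of ERK kinases (0.276, r = 0.967), followed by Zfp281 (0.346) and Olfml3 (0.347). For Tet1 1429448_s_at they were Egfbp2 (0.0913), Ppl (0.0949) and BC037032 (0.108). For Cdyl 1448935_at, its probeset with the highest mean, they were Irs1 (0.0820), Zfp746 (0.0894) and Dlx2 (0.0944). For Cdyl 1418070_at, a probeset chosen after its values were seen, Clec14a was nearest (0.178, r = 0.996), then Hoxc10 (0.215) and H1f2 (0.226). The 9 arrays are 3 lines of 3, so these values mostly describe the order of 3 means.

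The wider machinery was counted in 10 lists, with 1 probeset for each gene, and 142 of 151 genes were measured. With v-Src 8 were higher and 27 lower, where 9.54% of all 18193 genes were higher and 10.4% lower (19.9% together). With STAT3-C 11 were higher and 21 lower, beside 11.9% and 10.3% of all genes (22.2%). Directly, 15 were higher and 14 lower, beside 4.84% and 6.83% (11.7%). The medians of all genes were 0.02, 0.04 and -0.03.

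The 19 genes of the DNA replication list, which also holds proliferation markers, had the most calls of these lists with v-Src. With v-Src 11 fell and none rose (median -0.73), with STAT3-C 5 fell and 1 rose (median -0.19), and directly 6 were lower and none higher (median -0.35). The v-Src count ran from 6 to 12 with 1 array left out, being 6 without control array 3 and 7 without control array 1 or v-Src array 1 or 6, and none rose in any of these fits. The direct count ran from 2 (without STAT3-C array 1) to 9 (without v-Src array 5), and it was 3 without v-Src array 1 or STAT3-C array 3 and 4 without v-Src array 6. Mcm6, a subunit of the replicative helicase, changed by -1.85 with v-Src (SE 0.18) and by -0.99 with STAT3-C (SE 0.17). Mcm4 of the same helicase, read by an _x probeset, differed directly by -1.44 (SE 0.16). The proliferation markers Mki67 and Top2a, named after their values were seen, were not called. Mki67 lay at 0.41 with v-Src (SE 0.63) and 0.34 with STAT3-C, and Top2a at 0.30 (SE 0.39) and 0.16. With v-Src their standard errors were larger than that of Mcm6, so the missing calls say little. The part of these genes in the falls of Uhrf1 1415810_at and Ezh2 was not tested.

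Among 14 readers and cofactors of DNA methylation, 1 rose and 3 fell with v-Src, 2 rose and 3 fell with STAT3-C, and directly 2 were higher and 1 lower. Mbd1, which binds methylated CpG, changed by -2.38 with v-Src (SE 0.11) and by -2.36 with STAT3-C (SE 0.16). Uhrf2, the paralog of Uhrf1, changed by -0.85 with v-Src (SE 0.12) and by -1.89 with STAT3-C (SE 0.12), both called lower. Its direct difference was 1.03 (SE 0.09), because the fall was larger with STAT3-C. Among 11 genes of demethylation and repair, none rose and 3 fell with v-Src, 1 rose and 1 fell with STAT3-C, and 2 were higher directly. Gadd45b, a stress-induced protein linked to demethylation, changed by -1.01 (SE 0.18) and -1.68 (SE 0.15) in these lines, and its relative Gadd45a differed directly by 0.78 (SE 0.20).

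Of the other 10 PRC2 subunits none was called by limma against control in either line, and at an unadjusted p under 0.05 v-Src had 1 above and 4 below control, and STAT3-C had 1 each way. Rbbp7, a histone-binding subunit read by an _x probeset, differed directly by -0.79 (SE 0.10) and was the sole call there. Of 19 subunits of PRC1, the second Polycomb complex, 1 rose and 4 fell with v-Src, 2 rose and 4 fell with STAT3-C, and directly 4 were higher and 2 lower. Pcgf6, a subunit of variant PRC1, changed by -1.37 (SE 0.14) and -2.55 (SE 0.16) and differed directly by 1.18 (SE 0.12).

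Among 18 corepressors that act with CDYL, REST or histone deacetylases, 2 rose and 4 fell with v-Src, 3 rose and 4 fell with STAT3-C, and directly 3 were higher and 2 lower. Rest, the repressor of neuronal genes to which Cdyl binds, rose by 1.19 with v-Src (SE 0.14). Chd4, the helicase of the NuRD complex, changed by -0.95 with v-Src (SE 0.09) and -1.46 with STAT3-C (SE 0.10), both called, and Sin3b, a scaffold of histone deacetylases, differed directly by -1.21 (SE 0.10). Cdyl2, the paralog of Cdyl and named after its values were seen, rose by 0.94 with v-Src (SE 0.11) and 0.77 with STAT3-C (SE 0.12).

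Of 13 genes of histone H3 lysine 9 methylation and heterochromatin protein 1, 1 rose and 2 fell with v-Src, 1 rose and 3 fell with STAT3-C, and directly 2 were higher and 2 lower. Cbx1, which codes for a heterochromatin protein 1, fell by 1.41 with v-Src (SE 0.09) and differed directly by -1.48 (SE 0.08), and Wiz, a partner of the lysine 9 methyltransferases, changed by -0.72 with v-Src (SE 0.13) and -0.84 with STAT3-C (SE 0.15), both called. Of 9 histone demethylases, the single call was Kdm7a, which fell by 0.60 with STAT3-C (SE 0.12).

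Genes that these enzymes are known to silence were counted last, beside the shares of all genes given above. Of 14 germline genes with methylated promoters, 8 were below the lower quartile in all lines, and 1 was called: Taf7l, a transcription factor subunit of germ cells, rose by 0.63 with v-Src (SE 0.14). Of 15 neuronal genes with REST sites, 2 rose with v-Src, 1 rose with STAT3-C, 2 were higher directly, and none was called lower. At limma's unadjusted p under 0.05, v-Src had 5 above and 1 below control, and STAT3-C had 3 and 1. Directly, 3 were higher and 1 lower at that threshold. Vgf, a neuropeptide precursor, rose by 1.30 with v-Src (SE 0.19) and changed by 0.58 with STAT3-C, under the fold threshold. Mapk8ip1, a scaffold of JNK kinases, rose by 0.68 with v-Src (SE 0.13) and by 0.94 with STAT3-C (SE 0.12). Syp, a synaptic vesicle protein read by an _x probeset, differed directly by 0.90 (SE 0.08). DNA methylation and histone marks were not measured on these arrays.

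**Figure D4:**
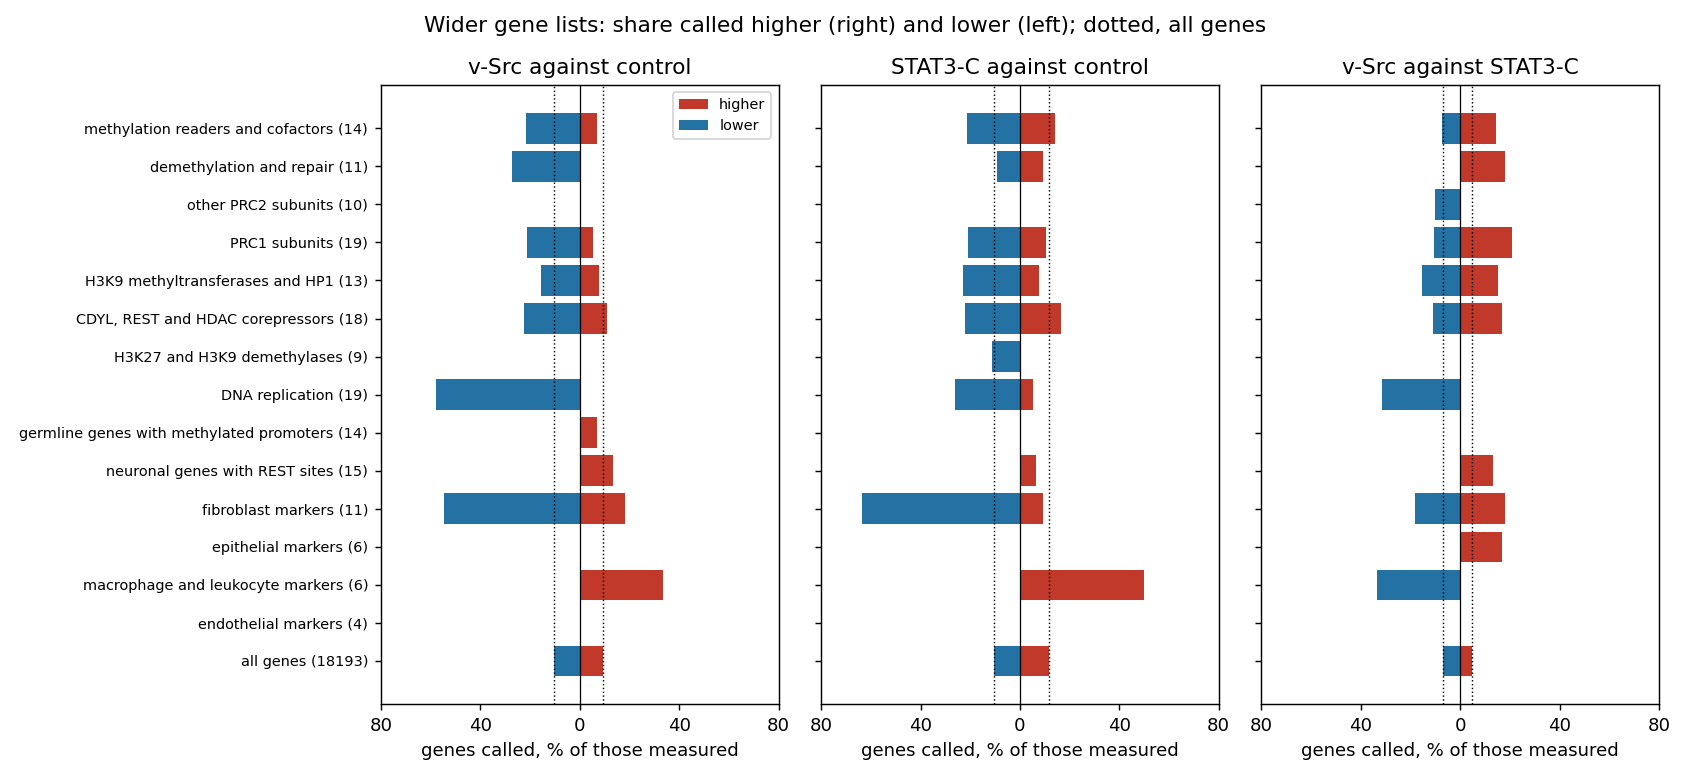
Share of the measured genes of each list called higher (red, to the right) or lower (blue, to the left), in percent, with the number measured in brackets; dotted lines show the share of all 18193 genes in each direction. On the lower side with v-Src the DNA replication genes (11 of 19) and the fibroblast markers (6 of 11) have the longest bars.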

How the data were processed

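Expression in 3 mouse lines was measured with 9 Affymetrix arrays. The deposited values are log2 expression, which the authors computed by Robust Multichip Average (RMA, version not given in the sources used here). Per the methods, RMA was run on each transfected line together with the control arrays. Which run gave the deposited columns is not stated. Pairs of a v-Src and a STAT3-C array held identical values, to the last digit, at 1061 to 1533 probesets. Within a line the counts were 925 to 1578 for control, 1681 to 1910 for v-Src and 1116 to 1369 for STAT3-C. Control arrays shared 1086 to 1818 with v-Src and 743 to 1362 with STAT3-C arrays. These counts do not settle which run gave the columns. If the transfected lines came from separate runs, the direct v-Src minus STAT3-C differences also hold any difference between runs, which was not tested. Arrays have no library depth, and their number, 3 for each line, limits the precision; an exact permutation of 3 against 3 arrays cannot go below p = 0.1.

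Groups come from sample titles. Each comparison was fitted with limma 3.58.1 (lmFit, eBayes) in R 4.3.3 on its own 6 arrays without covariates, and p-values were Benjamini-Hochberg adjusted over 45037 probesets, leaving out 64 control probesets of the array maker. Calls needed a fold of at least 1.5 besides an adjusted p below 0.05. The study's test, SAM, takes its null from other splits of the arrays and was not run. Of the probesets, 34945 carried 1 symbol, 932 several and 9160 none, and none was named from several; 34741 matched a current gene by number. A gene in a list is read by its probeset with the highest mean over 9 arrays; 169 of 178 entries of 14 lists were measured.

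The members and lists were chosen with earlier results of these data known, and the sequence words after the windows were read. The text names every member probeset, in each list the gene with the largest called change in each comparison, and the 3 genes nearest in profile to Cdyl and to members whose highest probeset is called against control. Other genes named after their values were seen are Vim, Ptprc, Stat3 and Src, besides those marked in the text.

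Code was tested on simulated data. Alternatives were all 9 arrays in 1 fit, repeated quantile normalization, centring arrays on their medians, leaving out probesets below the median level, a fold of 2 or none, an adjusted p under 0.01, eBayes with trend and robust, averaging the probesets of a gene, the replicate number as a block, and each array left out. Figures used python 3.11.15 and matplotlib 3.10.9.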

Additional observations from a re-analysis of the deposited data

Results flagged for a closer look

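In 3 member probesets the effects of v-Src and STAT3-C differed by a test of the difference itself, limma's direct comparison of the lines. These were Tet2 1438781_at, with v-Src above STAT3-C by 2.05 (adjusted p = 0.00211), Tet2 1455300_at, higher by 0.62 (adjusted p = 0.0288), and Dnmt1 1422946_a_at, higher by 0.75 (adjusted p = 0.00702). Of all probesets, 10.3% were called in this comparison. The call of Tet2 1455300_at was lost without v-Src array 1 or 6 or any single STAT3-C array (adjusted p 0.0656 to 0.0983). In each, all 3 v-Src arrays lay above all 3 STAT3-C arrays, but the 3 were picked by this comparison, so this adds no support. Uncalled members such as Dnmt3a 1423065_at and Tet1 1455425_at did not overlap there either. The share of all probesets without overlap was not counted. The other Dnmt1 probesets had the opposite sign, at -0.42 and -0.47, and were not called. Groups of 3 arrays were too small for a test of single outlying arrays.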

How the results depend on the processing

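The counts of called member probesets moved with the thresholds and with single arrays. With v-Src (5 of 20) a fold of at least 2 left 2, an adjusted p under 0.01 left 1, the filter on the median level left 3 and no fold threshold gave 9, and leaving out 1 array gave 3 to 6 (3 without control array 3 or v-Src array 1). With STAT3-C (6 of 20) the fold of 2 left 1, the stricter p 3, the filter 3, and leaving out 1 array gave 4 to 5 (4 without control array 1 or STAT3-C array 1 or 3). In the direct comparison (3 of 20) the fold of 2 left 1, no fold threshold gave 5, and leaving out 1 array gave 2 to 5 (5 without v-Src array 5). For the wider lists a fold of 2 left 14 of 35, 12 of 32 and 8 of 29 genes; no fold threshold gave 55 with STAT3-C; in the direct comparison an adjusted p under 0.01 left 18 and averaging the probesets of a gene 12. Leaving out 1 array gave 28 to 40, 29 to 35 and 19 to 31 (19 without STAT3-C array 1). Uhrf1 1415810_at in the direct comparison passed with all 9 arrays in 1 fit (adjusted p = 0.0267), the median-level filter (0.0393), median centring (0.0455) and eBayes with trend and robust (0.0477). The STAT3-C call of Ezh2 was lost with all 9 arrays in 1 fit (adjusted p = 0.0593). Signs turned only in uncalled changes near 0: with quantile normalization and median centring, Dnmt3a 1423064_at with v-Src (-0.062 and -0.066), Tet3 with v-Src (-0.029 and -0.041) and Dnmt3a 1460324_at with STAT3-C (-0.032 and -0.027). With 1 array left out, changes with STAT3-C ran from -0.019 to 0.30 for Dnmt3a 1423063_at, -0.15 to 0.18 for 1423065_at, -0.078 to 0.18 for 1460324_at and -0.13 to 0.23 for Uhrf1 1415811_at. With v-Src they ran from -0.086 to 0.11 for Dnmt3a 1423064_at and -0.35 to 0.14 for Uhrf1 1415811_at. In the direct comparison they ran from -0.021 to 0.13 for Cdyl 1418070_at, -0.027 to 0.18 for 1418071_s_at, -0.015 to 0.063 for Tet1 1419897_at and -0.41 to 0.087 for Uhrf1 1415811_at. The cause was not tested.

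With the replicate number as a block, STAT3-C against control gave 6 member probesets and 35 wider-list genes, and no member call changed. Same-numbered arrays did not deviate together (r = -0.09, 0.06 and 0.04), and differently numbered arrays gave r from -0.11 to 0.07. These values show no strong shared deviation, but they cannot tell whether the number stands for a shared passage or batch. No paired analysis was possible for the other comparisons because their lines share only number 1.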
